A study of Drosophila melanogaster with 2 samples.

Results

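The regions described are the 1016 ChIP-seq summits of l(3)neo38-GFP that lay 501 to 2000 bp from the nearest annotated transcript start, of 3953 summits in the authors' thresholded list (25.7%, exact 95% interval 24.3 to 27.1). A summit is the single base that the authors gave as the centre of a peak, and members were chosen by this distance alone, on the build dm6 and with transposable elements left out of the annotation. Of the other summits, 1307 lay within 500 bp of a start and are called promoter summits, and 1630 lay 2001 bp or more away and are called distal. The samples were 2 biological replicates of 1 group: whole Drosophila embryos aged 0 to 24 h, males and females pooled. They came from a transgenic strain, l(3)neo38-GFP, that stably expresses l(3)neo38 with GFP at its C-terminus, and chromatin sonicated to 200 to 800 bp was precipitated through the GFP tag. Embryos of this age span all of embryogenesis and hold every tissue, so a peak does not say in which cells the protein was bound. The sources used here do not give the promoter that drives the fusion, its level against the native protein or the number of copies of the locus. Embryos without the tag were not analysed here, and no conditions could be compared. Read counts were not used here, so the depth of the replicates is unknown, and all intervals cover counting error over peaks, genes or bases only.

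l(3)neo38 is a gene for a protein of the C2H2 zinc finger class, in which each finger folds around a zinc ion and rows of fingers read DNA sequence. In the compact fly genome the sequence beyond the core promoter, in first introns and just upstream of genes, often holds enhancers that set where and when a developmental gene is transcribed. GAGA factor, which binds repeats of GA, is known in fly embryos for keeping promoters and enhancers of developmental genes accessible.

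The summit sequences are shown first because the results turn on a stretch rich in C (8 bases of which at least 7 are C, on either strand) that 325 members held within 50 bp of the summit. The windows below are 101 bases centred on the summit, read 5′ to 3′ on the plus strand of dm6 from the RefSeq release 6 genome sequence, and capitals mark the C-rich stretches, which appear as runs of G where the C lie on the minus strand. Shown are the 6 strongest members with the stretch, with 1 chromosome arm left out of the sequences printed here. The window at mirr, an Iroquois homeobox gene, is chr3L:12693085-12693185, 504 bp upstream of the start in intergenic sequence, and its GC content was 55.4%. The window at brk, which encodes a repressor of Dpp target genes, is chrX:7306736-7306836, 1153 bp upstream and within a CG1677 intron, and its GC content was 66.3%. The windows at CG14434 and lncRNA:CR9162 are chrX:6853495-6853595, 650 bp upstream in an intron, and chr2L:6079027-6079127, 624 bp downstream in an exon. The window at Dad, the inhibitory Smad gene, is chr3R:17056739-17056839, 1892 bp downstream of the start in an intron. The window at ago, which encodes an F-box protein that marks Cyclin E for degradation, is chr3L:4253378-4253478, 624 bp downstream in an intron.
mirr: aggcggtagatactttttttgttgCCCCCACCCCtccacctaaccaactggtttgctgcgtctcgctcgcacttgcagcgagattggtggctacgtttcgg
brk: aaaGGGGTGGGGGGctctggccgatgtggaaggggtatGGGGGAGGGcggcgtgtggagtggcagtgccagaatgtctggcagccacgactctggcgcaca
CG14434: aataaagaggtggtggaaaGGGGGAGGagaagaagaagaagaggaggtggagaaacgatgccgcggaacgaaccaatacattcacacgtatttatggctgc
lncRNA:CR9162: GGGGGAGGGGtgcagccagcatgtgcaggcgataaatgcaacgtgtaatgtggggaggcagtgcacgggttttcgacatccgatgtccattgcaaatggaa
Dad: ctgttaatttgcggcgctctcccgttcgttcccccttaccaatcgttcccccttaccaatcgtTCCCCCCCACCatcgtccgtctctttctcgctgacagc
ago: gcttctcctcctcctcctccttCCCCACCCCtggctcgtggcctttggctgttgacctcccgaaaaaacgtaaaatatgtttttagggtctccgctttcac

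A further feature was the GAGA element, GAGAG or its reverse complement CTCTC, which 298 members held, 103 of them together with a C-rich stretch. The 4 strongest windows with the element, in capitals, and no C-rich stretch are shown, with the same arm left out. They lie at H15, a T-box gene (chr2L:5403647-5403747, 583 bp upstream, intergenic), at lncRNA:CR45643 (chr3R:16222439-16222539, 906 bp upstream, intergenic), at sim, which encodes the bHLH-PAS regulator of the ventral midline (chr3R:13064343-13064443, 1871 bp downstream, intronic), and at TfAP-2, an AP-2 transcription factor gene (chr3L:21584884-21584984, 1894 bp upstream, intergenic).
H15: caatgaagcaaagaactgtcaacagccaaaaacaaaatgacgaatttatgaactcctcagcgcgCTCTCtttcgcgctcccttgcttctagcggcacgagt
lncRNA:CR45643: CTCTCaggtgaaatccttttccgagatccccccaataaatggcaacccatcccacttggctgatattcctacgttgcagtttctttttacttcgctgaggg
sim: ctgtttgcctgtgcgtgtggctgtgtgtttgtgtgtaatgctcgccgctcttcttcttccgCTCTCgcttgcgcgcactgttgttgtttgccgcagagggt
TfAP-2: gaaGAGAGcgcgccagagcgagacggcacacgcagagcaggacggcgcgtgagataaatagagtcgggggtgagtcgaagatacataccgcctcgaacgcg

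The remaining 496 members held neither feature, and the 2 strongest of these outside the arm left out are shown. The window nearest to cbt, a zinc finger gene, is chr2L:481026-481126, 1388 bp upstream of cbt and inside an intron of ush. The window nearest to CG42507 and Trl, the gene for GAGA factor, is chr3L:14759396-14759496, 1484 bp upstream of starts of both and inside an intron of Trl. Their GC content was 24.8% at cbt and 29.7% at CG42507, far below the median of 47.5% over the 496 members, so they do not stand for that group. The strongest member of the group, nearest to lncRNA:CR44203, had a GC content of 60.4% and its window is not printed.
cbt: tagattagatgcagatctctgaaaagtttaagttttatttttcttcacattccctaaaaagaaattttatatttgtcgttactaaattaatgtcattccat
CG42507: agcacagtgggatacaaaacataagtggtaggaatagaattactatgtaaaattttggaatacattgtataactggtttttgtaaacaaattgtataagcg

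Member summits lay more densely upstream of the nearest transcript start than downstream of it. The zone of 501 to 2000 bp makes up 24.2% of the 6 chromosome arms (32.4 Mb) and held 31.4 summits per Mb, against 72.0 per Mb within 500 bp of a start and 19.6 per Mb beyond. Of the members, 499 were upstream of the nearest start (49.1%, exact 95% interval 46.0 to 52.2), while upstream bases were 39.2% of the zone. That gave 39.3 members per Mb upstream and 26.3 per Mb downstream. Coding exons, 29.6% of the zone with 1.25 members per Mb, were kept in both rates, and their part in the difference was not tested. The upstream share of distal summits was 42.3% (2-sided Fisher's exact test, adjusted p = 0.00296 over 14 comparisons between distance classes), and members were upstream in 48.6% of cases when replicate 1's list was used alone and in 48.2% for replicate 2. Peaks are not independent replicates, so these p-values measure counting over peaks and not the spread between embryos. The side depends on which starts are counted: with 1 start per gene, its 5′ end, 39.7% of members were upstream and the difference from distal summits turned and did not pass (exact p = 0.379). Of the 499 upstream members, 173 lay inside the gene they were upstream of, since they preceded an internal start of that gene.

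Within the zone the density upstream was 46.4 summits per Mb at 501 to 750 bp and 35.0 per Mb at 1751 to 2000 bp. Downstream it was 33.6 per Mb at 501 to 750 bp and 19.3 per Mb at 1751 to 2000 bp, near the 23.8 per Mb of the next 250 bp outward. Just inside the inner limit were summits at ttk, a zinc finger repressor gene, at 502 bp with a signal of 259.1, and at Nmdar2, a glutamate receptor gene, at 503 bp with a signal of 172.7. Just outside it were summits at CG17544 (499 bp, signal 206.3) and CG10543 (500 bp, signal 452.1). At the outer limit, toe, a Pax-family homeobox gene, had a summit at 1994 bp (signal 148.6) and CG33798 at 1999 bp (signal 193.8), while CG14634 and CG30089 had summits just outside, at 2001 bp (signals 183.7 and 224.4).

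**Figure D1:**
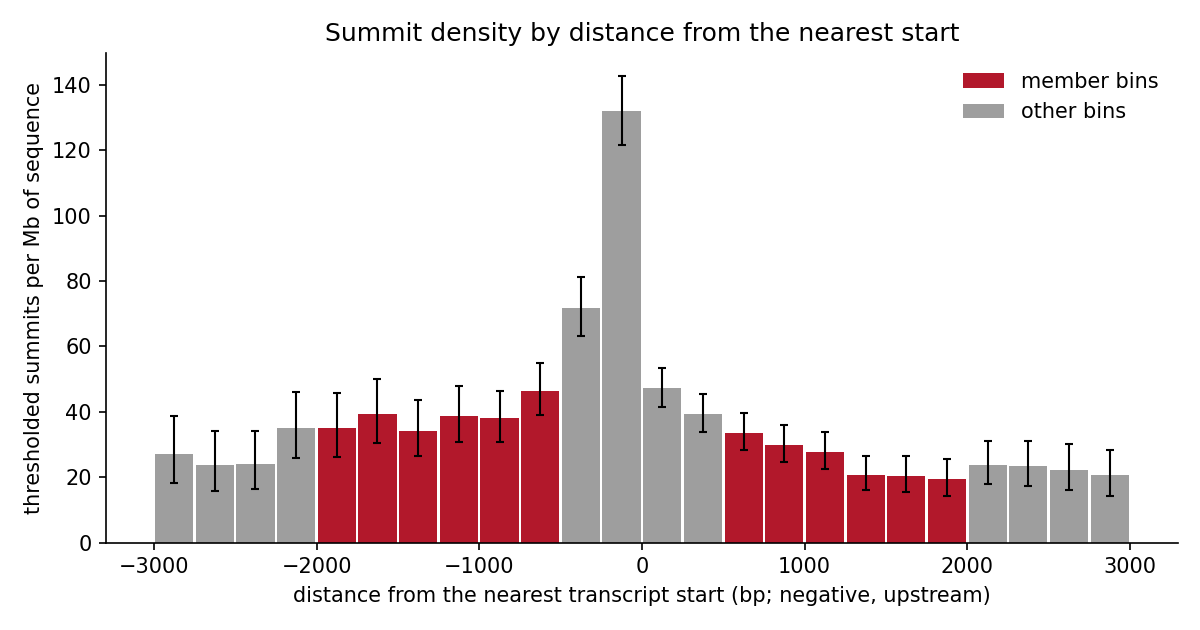
Thresholded summits per Mb of sequence (bars; lines, exact 95% intervals for counting error) in bins of 250 bp by distance from the nearest transcript start, negative upstream. Member bins, in red, run from 46.4 per Mb next to the promoter to 35.0 per Mb upstream, and from 33.6 to 19.3 per Mb downstream.

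Members lay mostly in introns and rarely in coding sequence. Introns held 619 of them (60.9%, exact 95% interval 57.8 to 63.9), although they are 35.3% of the zone's bases. Intergenic sequence held 289 (28.4% against 22.8% of bases), 5′ UTRs 36 (3.54% against 2.12%) and other exons, such as those of non-coding transcripts, 43 (4.23% against 2.37%). Coding exons, which are 29.6% of the zone, held 12 members (1.18%, 0.612 to 2.05), and 3′ UTRs, at 7.75% of the zone, held 17. The weaker entries of the authors' list from pooled replicates that fell in the same zone and overlapped no thresholded peak had 13.4% in coding exons and 46.5% in introns. Of the intronic members, 514 were inside the gene whose start was nearest and 105 were in an intron of another gene only, as at brk and cbt, so the nearest start does not name the gene that a member may act on. Taken alone, the list of replicate 1 gave 61.7% in introns and that of replicate 2 gave 59.0%.

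**Figure D2:**
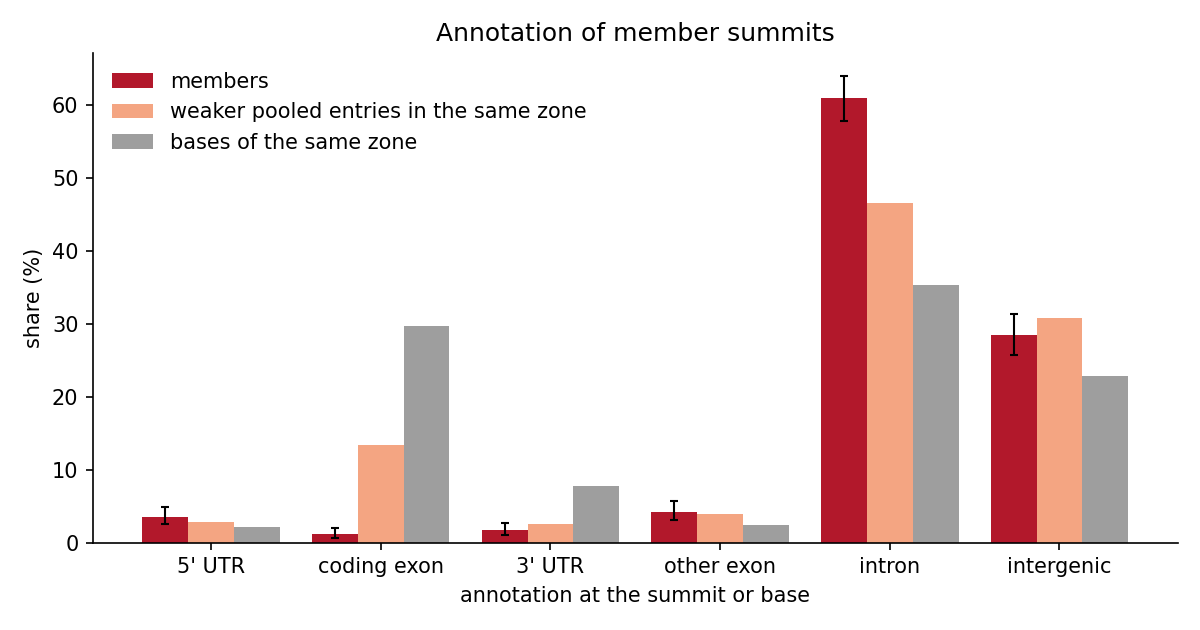
Share (%) of members by the annotation at the summit (red, with exact 95% intervals), beside weaker pooled entries of the same zone (orange) and all bases of the zone (grey). Introns held 60.9% of members and 35.3% of bases, and coding exons 1.18% and 29.6%.

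The signal value, the authors' own measure of peak strength whose normalization the sources used here do not state, placed members between promoter and distal summits. It ran from 140.9 to 1911 over the members, with a median of 210.0, against medians of 227.2 at promoter and 199.4 at distal summits. Of the members 50.1% were above the median of the thresholded list, fewer than the 56.1% of promoter summits (Fisher's exact adjusted p = 0.0122) and more than the 45.0% of distal summits (exact adjusted p = 0.0233). By the list of replicate 1 alone the shares were 49.9% of members and 57.1% of promoter summits (exact adjusted p = 0.00185 over 16 comparisons in single replicates). In replicate 2's, without replicate 1, the difference from promoter summits did not pass, with 52.4% against 55.2% (exact adjusted p = 0.212). The difference from distal summits passed in both lists, at 49.9% against 43.3% (exact adjusted p = 0.00291) and at 52.4% against 45.0% (0.00153).

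The replicates were compared over the 917 members that had a summit within 100 bp in both full lists of 30000 entries. Their median signal was 122.2 in replicate 1 and 101.8 in replicate 2, on scales that need not be the same. Across these peaks Spearman's rho was 0.574 and Pearson's r of log2 signal was 0.622, as a description over peaks that share their libraries. Among the 3953 strongest entries of each replicate, 633 members (62.3%, exact 95% interval 59.2 to 65.3) were matched in both, against 60.6% of promoter summits and 62.4% of distal summits (exact adjusted p = 0.615 and 1), and 27 were matched in neither. Strong members were matched far more often: 96.1% of the strongest 203 were in both sets and 7.88% of the weakest 203. Both replicates went into making the thresholded list, so these shares are no independent check. Below, matched in both replicates refers to the 3953 strongest entries of each. No match in a replicate means no summit within 100 bp in its full list of 30000 entries. By the full lists 90.3% of members were matched in both.

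**Figure D3:**
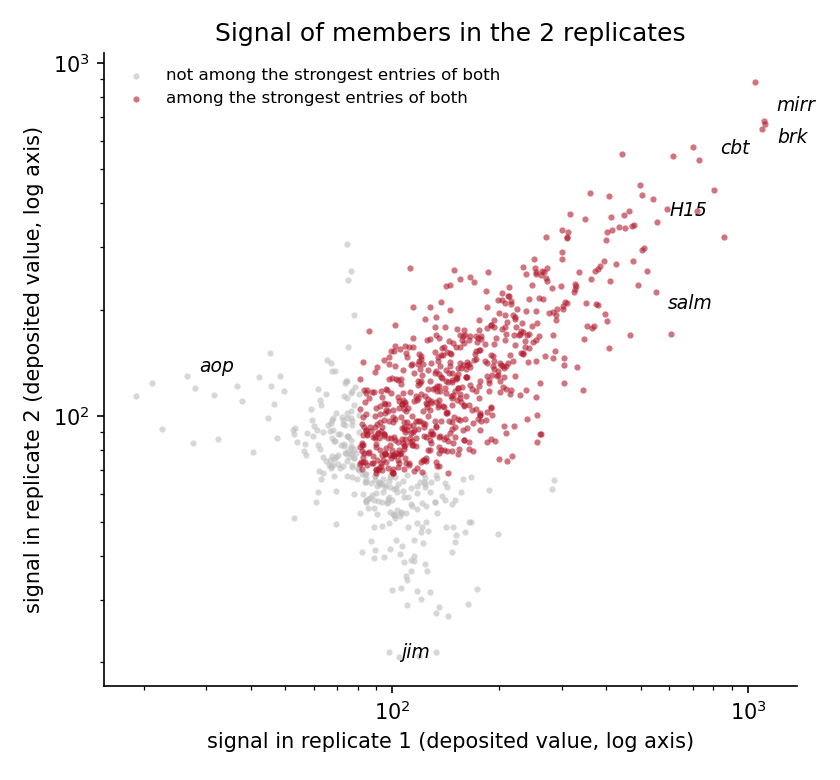
Signal of the 917 members found in both full replicate lists, replicate 1 against replicate 2 (log axes, the authors' values); red points are among the 3953 strongest entries of both. The members at mirr, brk and cbt sit together at the top with over 1000 in replicate 1, while aop (26.4 in replicate 1) and jim (21.4 in replicate 2) sit near the lowest values of 1 replicate.

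The 20 strongest members lay nearest to 20 different genes, 5 of them lncRNA genes. Each of the 20 had a match in either replicate, with ranks no lower than 91 in replicate 1 and 100 in replicate 2. At mirr the signal was 1797, with 1111 in replicate 1 and 684.1 in replicate 2. At brk it was 1776, with 1119 and 670.9, and at cbt 1738, with 1096 and 650.5. Only the first of all members was stronger, the summit nearest to lncRNA:CR44203, inside an intron of the eye determination gene so, at 1911 (1047 in replicate 1, 883.6 in replicate 2). The replicates therefore put these 4 members at the top together, in ranks 4 to 7 of replicate 1 and ranks 2 to 6 of replicate 2. The T-box genes bi and H15 followed with 1176 and 910.3, the chromatin remodelling gene tou with 1250 and Trl with 1195. At bi the replicates differed more, with 855.6 in replicate 1 and 320.4 in replicate 2. The signal was 820.2 at sim (471.5 and 345.1), 816.6 at TfAP-2 (447.9 and 371.4) and 814.7 at Dad (464.2 and 381.0). The other nearest genes of the 20 were lncRNA:CR9162, lncRNA:CR43801, lncRNA:CR44366, lncRNA:CR45643, CG14434, CG11050, CG10428, CG13204 and COX7AL2, a gene related to a cytochrome oxidase subunit. Of the 20, 12 were upstream, 11 were intronic and 7 intergenic, and 16 had a promoter summit at the same gene.

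Both sequence features shown above were gathered at member summits. They were chosen with earlier results of these data known, so their p-values are not those of patterns set in advance. The C-rich stretch was in 32.0% of the 1016 windows, against 4.53% of windows of the same width 350 bp away (exact McNemar test, adjusted p = 1.29e-58 over 25 motifs). It was in 2.86% of all 320582 windows of 101 bp tiled over the zone and in 3.41% of those outside coding exons. By the list of replicate 1 alone it was in 34.7% of members' windows and 4.56% of flanks, and by that of replicate 2 in 26.0% and 4.29%. The median distance of its centre from the summit was 21.5 bp, and in 191 of the 325 members (58.8%) the C lay on the coding strand of the nearest gene. GAGAG was in 29.3% of member windows and 14.2% of flanks (exact adjusted p = 1.75e-15), with 11.2% over the tiled zone. Counted in bins of 50 bp, the C-rich share fell from 18.6% at the summit to 7.58% and 7.68% at 100 bp on either side. The GAGA share had a broad top, with 16.8% at the summit and 16.5% and 17.4% at 100 bp.

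Against the other distance classes, members differed from promoter summits in the C-rich stretch and from distal summits in GAGAG. Fewer promoter summits held the C-rich stretch, at 24.7% (Fisher's exact adjusted p = 0.00138), and the share of distal summits was 34.8% (exact adjusted p = 0.243). Distal summits held GAGAG less often than members, at 22.8% (exact adjusted p = 0.00138), and promoter summits held it at 30.8% (exact adjusted p = 0.615). The C-rich difference from promoter summits passed in replicate 1 alone, with 34.7% against 22.99% (exact adjusted p = 3.74e-09), and not in replicate 2, with 26.0% against 22.4% (exact adjusted p = 0.0629). In replicate 2's list members held the stretch less often than distal summits, at 26.0% against 30.1% (exact adjusted p = 0.0392). For replicate 1 the shares were 34.7% and 38.7% (exact adjusted p = 0.0576). The GAGA difference from distal summits passed in both lists, at 27.3% against 23.3% (exact adjusted p = 0.0392) and 29.6% against 23.4% (0.00185).

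**Figure D4:**
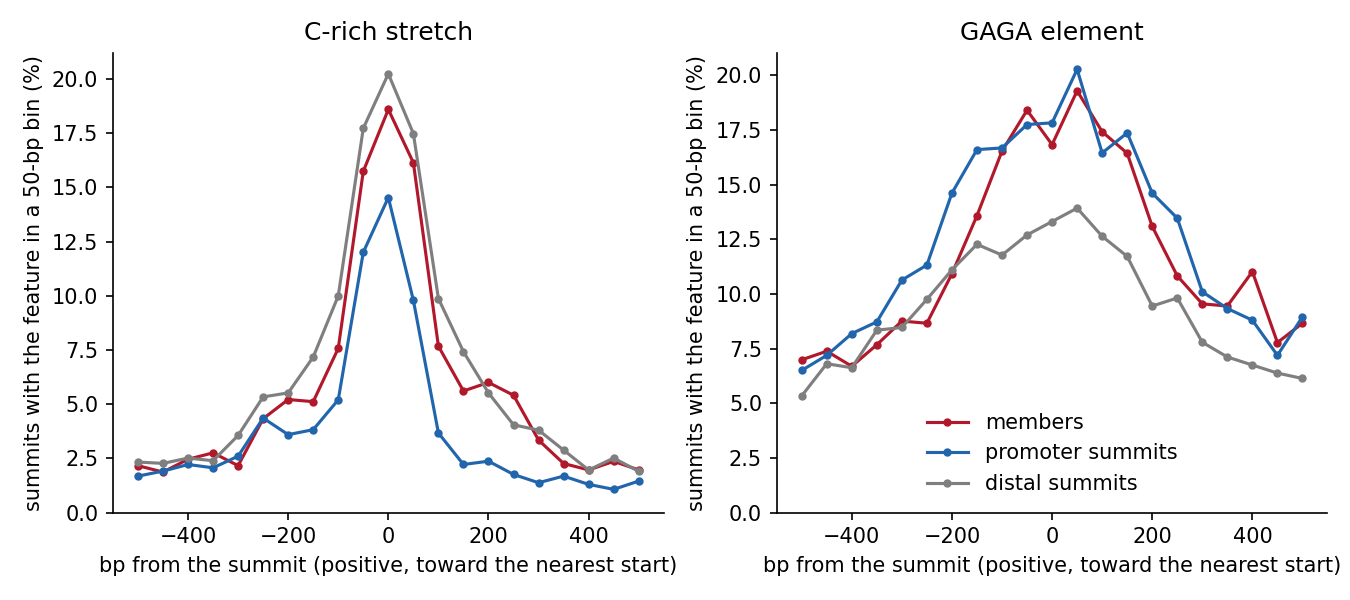
Share (%) of summits with a C-rich stretch (left) or a GAGA element (right) in bins of 50 bp by distance from the summit, positive toward the nearest start, for members (red), promoter (blue) and distal (grey) summits. The C-rich share of members peaks at 18.6% and is down to 7.68% at 100 bp, and the GAGA share of members stays near that of promoter summits.

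The C-rich stretch went with stronger and more often matched members, as a description, and GAGAG did so less. Members with and without the stretch had median signals of 232.4 and 199.3, and 73.2% and 57.2% were matched in both replicates. With and without GAGAG these were 228.5 and 203.8, and 65.4% and 61.0%. The 103 members with both features had a median signal of 259.2 and 79.6% of them were matched in both replicates. The 496 with neither had a median of 195.3 and 56.9%. Over the strongest 203 members 39.9% held the C-rich stretch and over the weakest 203 22.2%, while GAGAG was at 30.5% in both. Neither feature changed steadily with distance inside the zone: the C-rich share was 31.8% at 501 to 750 bp, 33.5% at 751 to 1000 bp, 30.5% at 1001 to 1500 bp and 32.9% at 1501 to 2000 bp, and the GAGA share went from 31.4% to 27.3%, 31.1% and 26.2%. Upstream and downstream members held GAGAG alike in share, at 29.1% and 29.6%, and the C-rich stretch at 29.5% and 34.4%.

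Of 25 motifs searched on both strands, chosen with earlier results of these data known, 5 (20%) were enriched at members and 3 (12%) depleted. Besides the C-rich stretch and GAGAG, the enriched ones were the CACCC box CCACCC (19.5% of windows against 4.43% of flanks), which overlaps the C-rich stretch, the CA repeat CACACACA (7.97% against 4.13%, exact McNemar adjusted p = 0.00219) and the E-box CAGCTG read by basic helix-loop-helix proteins (6.0% against 3.35%, exact adjusted p = 0.0229). The depleted ones were rich in A and T: TATAAA, the letters of the TATA box (8.17% against 13.1%, exact adjusted p = 0.0025), the homeodomain letters TAATTA (3.64% against 6.30%, exact adjusted p = 0.0229) and runs of 8 A (2.66% against 5.31%, exact adjusted p = 0.0133). Over all 3953 summits these 5 were also enriched and these 3 depleted, and further motifs passed both ways. Promoter and distal summits held CCACCC at 15.9% and 22.5%, the CA repeat at 6.96% and 7.24%, CAGCTG at 6.58% and 4.54% and TATAAA at 9.41% and 5.58%. The promoter element DRE, TATCGATA, was in 0 of 1016 member windows, which allows a share of up to 0.295%, and in 1.53% of promoter summit windows (Fisher's exact adjusted p = 0.000554 over 50 comparisons).

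Among 8-mers found in at least 1% of windows, 148 of 871 were enriched at members (17.0%) and 92 depleted (10.6%). Over all 3953 summits, 25.1% of 758 were enriched and 35.2% depleted. That test had more windows and another set of 8-mers, so its shares cannot be set directly against those of members. The leading 8-mer was CCCACCCC, in 6.99% of member windows and 0.492% of flanks (exact McNemar adjusted p = 2.3e-14), and in 0.284% of the tiled windows of the zone. CCCCACCC (6.30%) and CCCCCTCC (5.71%) came next. All of the first 20 enriched 8-mers held at least 6 C, or 6 G, and 13 of the first 20 depleted held no C or G, led by AAATAAAA (1.87% against 5.91%, exact adjusted p = 6.34e-05). The GC content was 49.5% ± 9.93 (SD over 1016 summits) at the summit and 40.7% ± 10.3 at the flank, and it was higher at the summit in 736 members and lower in 255 (74.3% of those that differed, 2-sided exact sign test p = 1.11e-54). The same share was 64.0% for promoter and 79.6% for distal summits. How far GC content alone goes with the C-rich stretch and with the 8-mers was not tested.

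Many members lay near other summits of l(3)neo38-GFP. Another thresholded summit was within 250 bp of 183 members (18.0%), more often than for distal summits (13.3%, Fisher's exact adjusted p = 0.00342) and at 17.1% for promoter summits (exact adjusted p = 0.741). No summit was closer than 199 bp to a member, and the median gap among these 183 was 203 bp. Of the 183, 35 had a promoter summit that near. The gene nearest to 391 members (38.5%) also had a promoter summit, against 33.4% of distal summits (exact adjusted p = 0.0196). That difference did not pass with 1 summit counted per cluster (34.4%, exact p = 0.169) and turned with a promoter limit of 300 bp (27.7%, exact p = 0.773). These 391 members had a median signal of 240.9, and the other 625 had 200.3. Of 1149 coding genes with a promoter summit, 227 also had a member (19.8%), and of the 12796 other coding genes 408 did (3.19%). These shares take no account of the number of starts or the length of zone sequence per gene.

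The members had 807 nearest genes, of which 635 were protein-coding, or 4.55% of the 13945 coding genes. A gene is said here to have a member where one of its starts was the nearest to a member summit. Long non-coding RNA and other ncRNA genes were nearest to 191 members, tRNA genes to 9 and snoRNA genes to 4. Per Mb of zone sequence nearest to their starts, coding genes had 29.8 members. This rate is given for gene lists because genes with several starts and wide spacing hold more of the zone. The lists are selections of genes, not whole classes, and were chosen with earlier results of these data known. How far that choice raises their shares and rates was not tested. They are described by counts only, with no test. Where a gene has several members, the value given is that of its strongest member unless more are named. Of 33 lists, the highest shares of genes with a member were in the E(spl) complex (6 of 12), neuron genes (10 of 21), neural progenitor regulators (11 of 24), C2H2 zinc finger genes (20 of 44), trachea and epidermis genes (8 of 19), the EGFR and AP-1 pathway (8 of 21) and the Dpp pathway (6 of 16). High shares were not particular to the zone. In the same order, promoter summits were at 10, 10, 12, 27, 5, 9 and 4 of these genes, against 8.24% of all coding genes.

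**Figure D5:**
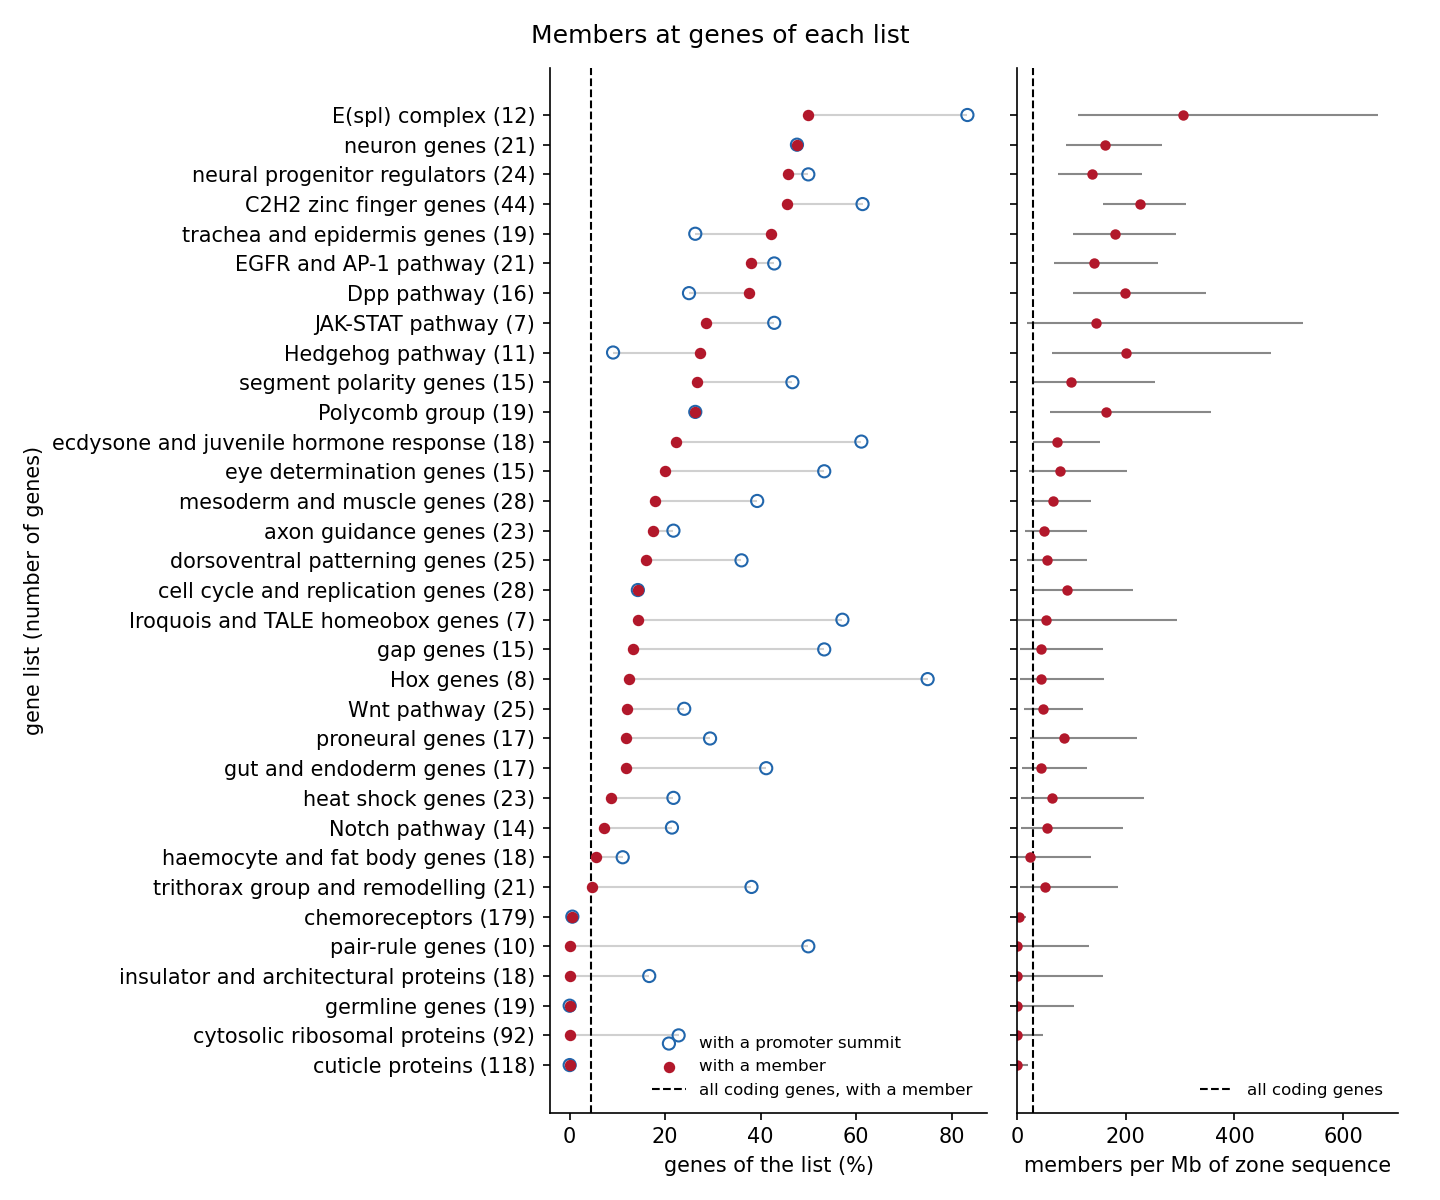
Left, share (%) of the genes of each list with a member (red) and with a promoter summit (open blue); right, members per Mb of zone sequence nearest to the list's genes, with exact 95% intervals for counting error. The dashed lines mark all coding genes, at 4.55% and 29.8 per Mb. C2H2 zinc finger genes reached 45.5% and 225.8 per Mb. The lists were chosen with earlier results of these data known.

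The list of 44 C2H2 zinc finger genes holds l(3)neo38 itself but not every gene of the class, and was chosen with earlier results known. It had 37 members at 20 genes, or 225.8 per Mb of their zone sequence (exact 95% interval 159.0 to 311.2). The interval covers counting error and not the choice of genes. The median of the strongest members of these genes was 291.5 against 222.5 over all coding genes with a member. The strongest was taken from more members per gene in this list (37 at 20 genes) than over all coding genes (810 at 635). The part of this in the difference was not tested. Without the tagged gene, an alternative chosen after seeing the data, 32 members lay at 19 of 43 genes (202.4 per Mb, 138.5 to 285.8). In this list cbt was followed by salm, which patterns the trachea and the wing, with a signal of 775.9. It was 550.3 in replicate 1 and 223.5 in replicate 2, 551 bp upstream of the start. chn, a repressor gene of sensory organ development, had 736.9 (414.0 and 336.6) in an intron, and klu, of neural progenitors, had 651.5 (410.0 and 240.8) upstream. dar1, bowl, crol, Kr-h1 and jing had 399.96, 365.0, 345.8, 329.9 and 323.6. At the lower end scrt, with 147.5, and sbb, with 214.5, had no match in replicate 2, and jim had 97.5 in replicate 1 and 21.4 in replicate 2.

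The tagged gene was among those with the most members, and all its members were in its introns. l(3)neo38 lies at 3R 11765038 to 11779128, and 5 member summits lay 610 to 1689 bp from its starts, beside 4 promoter summits. Their signals were 433.8, 427.1, 357.6, 284.2 and 261.4. The first, at 11776027, had 243.6 in replicate 1 and no match in replicate 2, and its neighbour at 11776226 had 112.1 in replicate 1 and 262.7 in replicate 2. The remaining 3 had 304.3, 160.9 and 155.4 in replicate 1 and 139.2, 113.5 and 111.9 in replicate 2. The flies carry a transgene of this gene, and its part in these peaks was not tested. dve, a homeobox gene of the midgut, also had 5 members, with signals from 145.6 to 435.1, and 4 of them were upstream of a start. tou, COX7AL2 and chn had 4 each, with strongest signals of 1250, 966.2 and 736.9. In all, 175 genes had at least 2 members and 44 at least 3, where a member with 2 nearest genes counts for both.

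Genes of the nervous system had members from progenitors to neurons. Neural progenitor regulators had 137.1 members per Mb (exact 95% interval 74.9 to 230.0). Beside klu they included svp, an orphan nuclear receptor of the temporal series, with 448.8 (241.9 in replicate 1, 214.3 in replicate 2), and mira, the adaptor that segregates fate determinants, with 430.5 (216.2 and 211.8), where the summit lay in an intron of the neighbouring gene Hs6st. brat, with 274.5, and pros, with 202.9, encode determinants that mira carries. grh had 295.8, and ham, wor and nub, with 152.5, 150.9 and 148.7, were not matched in both replicates. In the full lists wor and nub had entries in both replicates, and ham had no match in replicate 2. Neuron genes had 161.1 per Mb (90.2 to 265.8): zfh1 had 393.2 (242.3 and 155.3), elav, for the RNA-binding protein of all neurons, 328.6 (165.7 and 168.7), with its summit in an intron of the gene arg, brp, of the active zone, 276.0, and the sodium channel gene para 197.5. Axon guidance genes had 4 of 23 with a member, led by unc-5 at 365.8 (183.4 and 225.7) and robo2 at 232.3. Their rate was 50.4 per Mb (13.7 to 129.1, which held the 29.8 of all coding genes). Proneural genes had 2 of 17, ttk and sens, both of them also in the zinc finger list.

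The Dpp pathway had 12 members at 6 of 16 genes (198.7 per Mb, exact 95% interval 102.6 to 347.0), at several steps of the pathway. They were at the receptor genes tkv and put, with signals of 228.7 (82.5 in replicate 1, 142.2 in replicate 2) and 228.9 (137.4 and 97.0), and at Mad, the receptor-activated Smad, with 265.0 (151.9 and 110.6). Downstream of Mad, shn, a zinc finger partner of Smads, had 409.4 (220.7 and 190.2), and the inhibitors brk and Dad were among the 20 strongest members. The strongest members of the 6 genes were all matched in both replicates and in introns, that of brk in another gene. Of the other 6 members, 3 were at shn, with 323.3, 319.3 and 186.7, and were matched in both replicates. Those at tkv (190.4), Mad (158.0) and Dad (147.4) were not. Promoter summits were found at 2 of the 6, brk and shn.

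In the EGFR and AP-1 pathway, 8 of 21 genes had a member (141.3 per Mb, exact 95% interval 67.7 to 259.8). The ligand genes vn, Krn and spi had 225.4, 163.0 and 147.2, the receptor gene Egfr had 176.3, and the kinase gene Raf had 386.4 (236.4 in replicate 1, 163.2 in replicate 2). Among its targets and antagonists, kay, the fly Fos, had 327.6 (127.6 and 203.0), sty, the feedback inhibitor Sprouty, had 286.1 (174.9 and 121.6), and aop, the ETS repressor Yan, had 142.4. The aop member was at 26.4 in replicate 1 and 129.5 in replicate 2, and with spi it was not matched in both. Of the Hedgehog pathway, hh, ptc and rdx had members (3 of 11 genes), with 178.6, 201.1 and 256.4. Of the Wnt pathway, 3 of 25 had one (47.3 per Mb, exact 95% interval 12.9 to 121.2, which held the 29.8 of all coding genes). These were the receptor genes fz2 and fz3 at 296.9 and 254.8 and the secreted antagonist gene Notum at 169.4. In the JAK-STAT pathway Stat92E had 174.5 and Socs36E 161.3.

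The E(spl) complex, a cluster of Notch target genes, had the highest rate, with 6 members in 19.7 kb of zone sequence (305.3 per Mb, exact 95% interval 112.0 to 664.5), but modest signals. E(spl)m2-BFM had 351.9 (177.5 in replicate 1, 167.8 in replicate 2), E(spl)m4-BFM 245.5 (101.9 and 158.0) and E(spl)m5-HLH 221.6 (114.9 and 109.9). E(spl)m7-HLH, E(spl)m8-HLH and E(spl)malpha-BFM had 167.3, 162.0 and 148.0 and were not matched in both replicates. The genes of this complex lie close together, so a summit assigned to one may be near another. Of the 14 other Notch pathway genes, mam, the coactivator Mastermind, had a member, at 446.6 (213.4 and 231.5).

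In the lists of genes that pattern the early embryo, shares of genes with a member ran from 0 to 26.7%, against 4.55% of all coding genes. Segment polarity genes had 4 of 15 (99.4 members per Mb, exact 95% interval 27.1 to 254.6, against 29.8 for all coding genes). H15 came first, with en, hh and ptc at 344.1, 178.6 and 201.1, all upstream and intergenic. Gap genes had 2 of 15 (43.5 per Mb, 5.27 to 157.2), knrl at 156.7 and slp2 at 148.5, neither matched in both replicates. Of the pair-rule genes 0 of 10 had a member, which allows a share of up to 30% by the limit of 3 counts and a rate of up to 132.1 per Mb by the exact 95% interval, while 5 of the 10 had a promoter summit. Of the Hox genes, 1 of 8 had a member (44.5 per Mb for the list, 5.39 to 160.8), and 6 had a promoter summit. The 1 gene was Abd-B, at 178.3 (86.7 in replicate 1, 93.1 in replicate 2). Dorsoventral genes had 4 of 25 (55.5 per Mb, 18.0 to 129.5). Beside brk and sim these were vnd, a neural homeobox gene, at 336.8 and ths, an FGF gene, at 213.1. Each rate interval given in this paragraph held the 29.8 per Mb of all coding genes. The eye determination genes eya, so and toe had 282.0, 162.1 and 148.6, where the summit in the so intron counts for the lncRNA start nearest to it. The rate of the eye list was 79.3 per Mb (21.6 to 203.1).

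Chromatin and hormone genes gave a mixed picture. The Polycomb group had 5 of 19 genes with a member (163.9 per Mb, exact 95% interval 60.1 to 356.7): the neighbouring copies ph-p and ph-d at 371.3 (192.7 in replicate 1, 186.3 in replicate 2) and 365.3 (199.1 and 195.5), and Su(z)2 and Psc, which also belong to 1 locus, at 272.8 and 232.4, with Jarid2 at 221.7. A further member at ph-p had 292.1 (155.1 and 140.9), and all 6 members of the list were matched in both replicates. Of 21 listed trithorax group and remodelling genes 1 had members, Trl with 2, of which the weaker (479.0) had no match in replicate 1. That summit was at 14759647, and its stronger neighbour at 14759446 had 803.2 in replicate 1. The chromatin remodelling gene tou, which had 4 members, is not in this list. Of 18 insulator and architectural protein genes 0 had a member, which allows up to 16.7%. Among ecdysone and juvenile hormone genes, EcR, the ecdysone receptor, had 536.6 (271.5 and 241.1), followed by Kr-h1, Eip63E at 228.2 and Eip75B at 149.1 (4 of 18). The rate of this list was 73.8 per Mb (29.7 to 152.0, which held the 29.8 of all coding genes).

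Trachea and epidermis genes had 16 members at 8 of 19 genes (180.3 per Mb, exact 95% interval 103.1 to 292.8). After salm, rib had 582.6 (370.8 in replicate 1, 257.5 in replicate 2) and trh, the tracheal selector gene, 393.5 (218.2 and 192.8), and stumps, which acts with the FGF receptors, had 222.5. Mesoderm and muscle genes had 5 of 28 (65.8 per Mb, 26.4 to 135.5, which held the 29.8 of all coding genes). Among them were mbc, for a protein of myoblast fusion, at 351.1 (189.7 and 148.6), Tm1 at 216.4 and Mef2, the muscle regulator, at 161.2. Gut and endoderm genes had 2 of 17 (43.8 per Mb, 9.04 to 128.1, which also held 29.8). They were srp, a GATA factor gene, at 347.8 (204.1 and 138.2) and bin at 244.9. The bin summit, at 6989172, had no match in replicate 2, but a further bin member at 6989375 had 66.7 there. srp was also the 1 gene of 18 in the haemocyte and fat body list.

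Cell cycle genes had 4 of 28 with a member (91.6 per Mb, exact 95% interval 29.7 to 213.7, which held the 29.8 of all coding genes). Members at 3 of these genes were strong. E2f1 had 519.9 (253.0 in replicate 1, 255.5 in replicate 2), fzr, an activator of the anaphase-promoting complex, 508.9 (261.0 and 250.9), dap, a Cdk inhibitor, 357.7 (196.1 and 165.7), and CycA 163.5. Heat shock genes had 2 of 23 (64.4 per Mb, 7.80 to 232.7, which also held 29.8), Hsf at 222.5 and Hsp60A at 218.8. Members were absent from the starts of 92 cytosolic ribosomal protein genes, which allows a share of up to 3.26%, although 21 of these had a promoter summit. The zone nearest to these genes was small, at 77.4 kb, so 0 members allow up to 47.7 per Mb (upper exact 95% bound), above the 29.8 per Mb of all coding genes. None of 118 cuticle protein genes had a member (up to 2.54%; up to 20.3 per Mb), none of 19 germline genes (up to 15.8%) and 1 of 179 chemoreceptors, Or67d at 469.8 (257.9 and 215.2).

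By chromosome arm, 17.8% of members were on X (exact 95% interval 15.5 to 20.3), beside 17.5% of promoter and 17.8% of distal summits (Fisher's exact adjusted p = 1 for both). The median interval around a member was 460 bp wide. For 206 members (20.3%) the interval came within 500 bp of a start and for 2 it held one, and most of these were among the 277 members at 501 to 750 bp, of which 72.2% reached that far. A promoter summit lay within 1000 bp of 124 members.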

How the data were processed

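The members and the gene lists, motifs and named genes were chosen with earlier results of these data known. Per the labels, the authors deposited peak lists on dm6 and dm3 made from the alignments of each replicate, or of both pooled, with a control, and a list thresholded by the irreproducible discovery rate. The sources used here do not state the caller, its settings or the threshold. The signal value of each entry is deposited by the authors, and served for ranking and description inside 1 list at a time. The dm3 lists were not used.

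Summits were placed against Ensembl release 115 with Python 3.11.15, pandas 2.3.3 and scipy 1.17.1. Where annotations overlapped, UTRs and coding exons took precedence over other exons and these over introns. Windows were 101 bp, with flanks 350 bp away on a randomly drawn side. Shares between distance classes were compared by 2-sided Fisher's exact tests, and windows with flanks by exact McNemar tests, with Benjamini-Hochberg adjustment at 0.05. Procedures were tested on simulated data. Named genes are those of the 20 strongest members, the 2 strongest of each list, the 5 genes with the most members, and members at the limits of the zone; other list genes were named after their values were seen. For 14 list genes an older symbol was matched, and 1 name was not found.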

Additional observations from a re-analysis of the deposited data

How the results depend on the processing

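Of 107 alternatives, 88 left a result in place, among them all for the C-rich stretch, GAGAG and GC content at the summit against the flank. The C-rich difference from promoter summits did not pass without replicate 1 (26.0% against 22.4%, exact adjusted p = 0.0629). With 1 start per gene, its 5′ end, the zone held 24.1% of summits, introns 54.4% of members, and the upstream share was 39.7%, its difference turned. A promoter limit of 300 bp gave a zone share of 33.6%, 57.4% in introns, 5.74% of coding genes, 27.7% at a gene with a promoter summit (turned) and 51.99% above the median signal, no longer different from promoter summits (exact p = 0.101). An outer limit of 3000 bp gave a zone share of 33.7% and 5.50% of coding genes. With starts of coding genes only, these were 22.7% and 4.98%. With 1 summit per cluster, 34.4% lay at a gene with a promoter summit, no longer different. With the strongest 1976 peaks, 2.45% of coding genes had a member, 90 8-mers were enriched, and 90.8% of members were matched in both replicates, which then differed from promoter summits (exact p = 0.0161). Windows reaching 25 or 100 bp gave 18 or 344 enriched 8-mers, the C-rich stretch in 16.0% or 46.5% of members and GAGAG in 15.7% or 48.7%. Leaving out either replicate gave 49.9% to 52.4% above the median, and the difference from promoter summits did not pass without replicate 1. The changes with other limits, starts, windows and list lengths follow from those definitions counting other summits, genes or bases; the causes of the turned or lost differences were not tested. No pairing of samples between conditions was possible because there is only 1 group. Depth is unknown, so what more reads would add cannot be given.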
